A study of Homo sapiens with 18 samples.

Results

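The genes described here moved in the same direction after 24 h of olaparib in a pair of breast cancer lines labelled HCC1937. A gene was included if it had a mean of at least 1 CPM (its counts scaled to the size of the library) in each line over its untreated and 24 h libraries, which 12332 of the 35044 genes in the count table did, all of them among the 18335 genes that were tested. The olaparib response of a gene was the mean of its log2 fold changes in the lines, 24 h against 0 h. The 1 CPM minimum was met just by IQANK1, at 1.0006 CPM in its lower line, and just missed by VPS13B-DT, at 0.99944 CPM.

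HCC1937 is a cell line from a human breast carcinoma with a mutated BRCA1 gene, BRCA1 being a protein of homologous recombination repair. The study describes HCC1937-EV as this line with an empty vector. In HCC1937-OE-BRCA1 wild-type BRCA1 was overexpressed, so that it holds both the truncated and the transfected form. RNA-seq was done on each line at 0 h, 12 h and 24 h of 10 µmol/L olaparib with 3 libraries per condition, 18 in all, of which the 12 at 0 h and 24 h enter the comparison. The sample labels call the genotype of HCC1937-EV WT and give olaparib as treatment even for libraries at 0 h, while the study describes the line as BRCA1-mutated and those cells as untreated, so groups were taken from the sample titles. Whether either line is 1 clone, and whether the 3 libraries of a condition came from separate cultures, is not given in the sources used here, so p-values measure the spread between these libraries, which may be technical.

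Olaparib inhibits PARP1 and PARP2, enzymes that add chains of ADP-ribose to proteins at DNA breaks, and traps them on the DNA, where replication forks meet them. Cells with defective homologous recombination tolerate this badly. DNA damage can stabilise p53, which induces the cell cycle inhibitor p21, and nucleic acids in the cytosol can induce interferons, after which a transcription factor complex that holds STAT2 and IRF9 turns on interferon-stimulated genes through a promoter element with repeated GAAA letters.

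Total counts per library lay between 15081973 and 17571922, so that 1 CPM stood for 14.7 to 17 counts. BRCA1 itself, the overexpressed gene, stood at 126, 111 and 117 CPM in untreated HCC1937-EV and at 166, 122 and 127 CPM in untreated HCC1937-OE-BRCA1, ranges that overlapped. At 24 h it stood at 90.9, 93.1 and 99.5 CPM against 155, 159 and 169 CPM, with no overlap between the lines, and counts per gene cannot tell the truncated from the transfected form. The lines differed in epithelial markers, with EPCAM at no more than 0.0617 CPM and KRT5 at no more than 0.124 CPM in the 0 h and 24 h libraries of HCC1937-EV, against 252 to 352 CPM and 1060 to 1690 CPM in HCC1937-OE-BRCA1. CDH1 and KRT17 reached 1.2 and 3.77 CPM at most in HCC1937-EV, against 329 to 473 CPM and 1230 to 2020 CPM in HCC1937-OE-BRCA1. Of the 16 epithelial markers in the table, 10 had a mean of at least 1 CPM in untreated HCC1937-EV and 16 in untreated HCC1937-OE-BRCA1. The keratins KRT8 and KRT18 were present in both lines, at 772 CPM or more. Whether both lines derive from the same HCC1937 stock is not shown by these counts and was not tested. In differences between the lines, the part of BRCA1 cannot be told apart from that of other traits of the lines. Of markers of other cells, the 6 lymphocyte markers in the table summed to 2.65 CPM at most in any of these libraries, the 7 myeloid markers to 6.26 to 10.9 CPM in HCC1937-EV and 37.6 to 92.2 CPM in HCC1937-OE-BRCA1, the 8 fibroblast markers to 97.3 to 153 CPM and 7.14 to 12.2 CPM, and the 5 endothelial markers to 1.3 to 2.95 CPM and 17.7 to 26.3 CPM. Some sums moved with treatment without overlap. Fibroblast markers in HCC1937-EV went from 97.3 to 117 CPM without treatment to 139 to 153 CPM at 24 h. Endothelial markers in HCC1937-OE-BRCA1 went from 17.7 to 21 CPM to 25.1 to 26.3 CPM, and the 16 epithelial markers there from 10300 to 13400 CPM to 8180 to 9040 CPM. Myeloid markers in HCC1937-EV went from 9.19 to 10.9 CPM to 6.26 to 8.84 CPM. In HCC1937-OE-BRCA1 the myeloid sum was 37.6 to 54.7 CPM without treatment and 75.3 to 92.2 CPM at 24 h, nearly all of it CD14, while LYZ reached 0.368 CPM and CD68 0.185 CPM at most. The part of these markers in the results was not tested, and in bulk libraries fewer cells of a kind and less RNA per cell cannot be told apart.

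The lines shared few changes. In the mean of both lines, 358 of the 12332 genes (2.90%) were called higher and 179 (1.45%) lower at an adjusted p under 0.05, by the quasi-likelihood test of edgeR, with p-values adjusted after Benjamini and Hochberg over all genes tested. Of all 18335 tested genes 397 (2.17%) were higher and 192 (1.05%) lower. On its own, HCC1937-EV had 1469 genes higher (11.9%) and 867 lower (7.03%), and HCC1937-OE-BRCA1 had 634 higher (5.14%) and 595 lower (4.82%). Only 63 genes rose (0.511%) and 22 fell (0.178%) in the mean and in each line by itself, while 214 genes (1.74%) were called in opposite directions. Both shared shares lie under the product of the shares that the lines had on their own. The shared counts therefore do not exceed the overlap that unrelated calls in the lines would give, though no test of this was run. Of all 12332 genes, 8176 (66.3%) had fold changes of opposite sign. The difference between the lines was itself called for 3350 genes (27.2%), of which 214 were among the 537 genes (4.35%) called in the mean.

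Of the 358 genes higher in the mean, 141 were called in HCC1937-EV alone, 136 in HCC1937-OE-BRCA1 alone and 18 in neither. Of the 179 lower genes, 59, 88 and 9 were in these classes, and 1 was called in both lines in opposite directions. The genes called in both lines are therefore the ones described in full. Their treated and untreated libraries did not overlap in either line for 61 of the 63 and all 22 genes, against 2.0% of all genes higher and 1.14% lower without overlap in both lines. The genes were chosen by tests on the same libraries, so this separation largely follows from the choice and is no separate evidence.

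**Figure D1:**
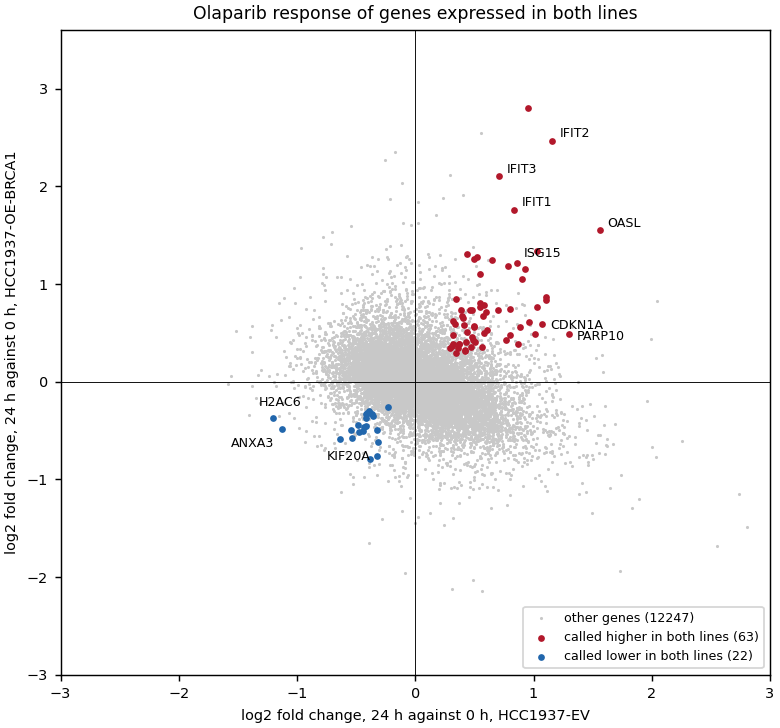
Each point is 1 of the 12332 genes, with the log2 fold change after 24 h of olaparib in HCC1937-EV on the horizontal axis and in HCC1937-OE-BRCA1 on the vertical axis. The 63 genes called higher in both lines (red) lie in the upper right and the 22 called lower (blue) in the lower left, while most other genes (grey) fall along the opposite diagonal, and 1 gene lies outside the axes.

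The counts of genes called in both lines depended on single libraries, whereas the calls in the mean did not for these genes. Without replicate 1, 2 or 3 of untreated HCC1937-EV, 24, 39 and 27 genes were higher and 8, 14 and 11 lower in both lines. Without replicate 1 or 2 of HCC1937-EV at 24 h the counts were 32 and 28 higher and 13 and 7 lower, and without replicate 1, 2 or 3 of HCC1937-OE-BRCA1 at 24 h they were 38 each higher and 7, 7 and 4 lower. In the mean contrast 62 or 63 of the 63 genes and all 22 stayed called without any 1 library. For all genes in the mean, 196, 234 and 199 were higher and 116, 116 and 115 lower without replicate 1, 2 or 3 of untreated HCC1937-EV, 118 lower without replicate 1 of HCC1937-EV at 24 h, 200 and 105 without its replicate 2, and 206 and 202 higher and 101 and 102 lower without replicate 1 or 2 of HCC1937-OE-BRCA1 at 24 h. In all 12 such fits, 22 of the 85 genes were called in both lines, and 20 of them (18 higher, 2 lower) were also called in both lines under 8 other refits. Ranges of fold changes given below for fits without 1 library are over all 12 of them. An intersection-union test, which asks for a change in both lines at once, called 6 genes higher (OASL, IFIT2, IFITM1, CDKN1A, IFIT1 and CD22) and 0 lower by edgeR.

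GC content moved with the libraries and in opposite ways in the lines. Spearman's rho across genes between GC content and how far a library deviated from its line lay between -0.617 and -0.245 in untreated HCC1937-EV and between 0.298 and 0.65 at 24 h, but between -0.638 and 0.605 in untreated HCC1937-OE-BRCA1 and between -0.481 and -0.333 at 24 h. The 63 shared risers had a median GC content of 55.9%, the 22 shared fallers 44.3% and all genes 48.4%. With an offset for GC content and gene length, 1015 genes were higher and 813 lower in the mean, a share of 55.5% higher in place of 66.7%, and without a filter on low counts that share was 55.2%. In both lines 143 genes were then higher and 112 lower, among them 45 of the 63 and 16 of the 22. The part of GC content in single genes was not tested beyond the offset, under which 62 of the 63 and all 22 stayed called in the mean.

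Interferon-stimulated genes made up most of the largest shared rises. Of the 12 genes with a symbol and the largest mean rise among non-overlapping shared risers, 7 belong to the list of interferon-stimulated genes: IFIT2, OASL, IFIT3, IFIT1, IFITM1, ISG15 and IFI44. Of the 49 listed genes at 1 CPM or more in both lines, 28 (57.1%) were called higher in the mean and 0 lower by edgeR, against 2.90% and 1.45% of all genes. Only 11 of the 49 were called higher in both lines. The median log2 fold change of the 49 genes was 0.465 in the mean, against -0.000707 for all genes.

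IFIT1, IFIT2 and IFIT3, tetratricopeptide-repeat proteins that bind viral RNA or each other, lie close together on chromosome 10 (GRCh38, chr10:89283694-89406486, from the start of IFIT2 to the end of IFIT1). IFIT2 stood at 6.77, 5.62 and 5.12 CPM in untreated HCC1937-EV and at 13.2, 13.6 and 12.3 CPM at 24 h. Its level in HCC1937-OE-BRCA1 went from 42.9, 36.1 and 33.8 CPM to 200, 216 and 206 CPM. Treated and untreated libraries were far apart in both lines, and the rise was 2.23-fold in HCC1937-EV (log2 1.16 ± 0.13 SE, n = 3 against 3, edgeR's adjusted p = 6.76e-05) and 5.52-fold in HCC1937-OE-BRCA1 (2.46 ± 0.12, edgeR's adjusted p = 3.79e-11). IFIT3 rose 1.64-fold and 4.3-fold, from 5.4, 3.77 and 5.12 CPM to 8.15, 8.14 and 7.13 CPM and from 72.1, 67.3 and 58.1 CPM to 277, 281 and 291 CPM. IFIT1 rose 1.78-fold and 3.4-fold, from 8.39, 6.3 and 7.59 CPM to 16, 11.6 and 12.2 CPM and from 105, 92 and 70.3 CPM to 295, 308 and 305 CPM. For all of these genes the log2 fold change was larger in HCC1937-OE-BRCA1, by 1.31 ± 0.18 for IFIT2 (edgeR's adjusted p = 0.000136), 1.39 for IFIT3 (0.00015) and 0.93 for IFIT1 (0.00444).

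OASL had close folds in both lines. This relative of the 2′-5′ oligoadenylate synthetases, which has lost their enzyme activity, stood at 7.33, 7.6 and 6.66 CPM in untreated HCC1937-EV and at 21.5, 21.6 and 20.7 CPM at 24 h. Levels in HCC1937-OE-BRCA1 were 101, 130 and 117 CPM and then 335, 351 and 333 CPM. The libraries did not overlap, the folds were 2.95 and 2.93 with edgeR's adjusted p of 3.33e-07 and 2.77e-09, and the log2 difference between the lines was -0.01 ± 0.14 SE (edgeR's adjusted p = 1). Its level differed between the lines, and its fold change was not distinguishable between them.

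IFITM1, a membrane protein that restricts virus entry, rose 1.91-fold and 2.22-fold, from 8.88, 10.3 and 11.2 CPM to 21, 20.2 and 16.8 CPM in HCC1937-EV and from 69.1, 94.2 and 99.2 CPM to 202, 196 and 186 CPM in the other line. ISG15, a ubiquitin-like protein that is conjugated to other proteins, rose 1.81-fold and 2.33-fold, from 4.04, 5.69 and 5.12 CPM to 9.98, 9.02 and 7.91 CPM and from 294, 464 and 354 CPM to 887, 948 and 758 CPM. IFI44 rose 1.87-fold and 2.08-fold, from 1.93, 1.98 and 1.17 CPM to 3.07, 3.36 and 3.06 CPM and from 198, 169 and 143 CPM to 342, 363 and 355 CPM. None of these overlapped between treated and untreated libraries in a line, and none differed between the lines at an adjusted p under 0.05 (edgeR's adjusted p = 0.465, 0.392 and 0.71). The call of ISG15 in both lines was lost without replicate 1 or 3 of HCC1937-EV at 0 h or its replicate 1 or 2 at 24 h. Over all 12 fits that left out 1 library, the log2 fold change of ISG15 in HCC1937-EV lay between 0.73 and 0.97.

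The other 4 listed genes called in both lines were PARP10, IFI35, APOL2 and LGALS3BP. PARP10, a mono-ADP-ribosyltransferase, was the one with the larger fold change in HCC1937-EV, 2.47-fold against 1.4-fold (difference of log2 fold changes -0.82, edgeR's adjusted p = 0.0405), at levels of 1.73 to 2.11 CPM against 300 to 488 CPM without treatment. With the offset for GC content and length its log2 fold changes were 0.90 and 0.74, and the difference of -0.16 was not called (edgeR's adjusted p = 0.672). IFI35 rose 1.46-fold and 2.15-fold, and APOL2, of the apolipoprotein L family, 1.27-fold and 1.79-fold (difference 0.50, edgeR's adjusted p = 0.0157). LGALS3BP, a secreted galectin-binding glycoprotein, rose 1.25-fold and 1.39-fold. With the offset for GC content and length the log2 fold change of LGALS3BP in HCC1937-EV was 0.00 and that of IFI35 0.23, neither called, against 0.32 and 0.55. The calls in both lines of IFI35 and APOL2 were lost without any 1 of the 3 untreated HCC1937-EV libraries or its replicates 1 or 2 at 24 h, with log2 fold changes in that line of 0.48 to 0.66 and 0.30 to 0.38. That of PARP10 was lost without replicate 3 of untreated HCC1937-EV, replicate 1 of untreated HCC1937-OE-BRCA1 or any 1 of its 24 h libraries (0.30 to 0.62 in that line), and that of LGALS3BP without any 1 library except those of untreated HCC1937-OE-BRCA1 (0.27 to 0.35 in HCC1937-EV).

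**Figure D2:**
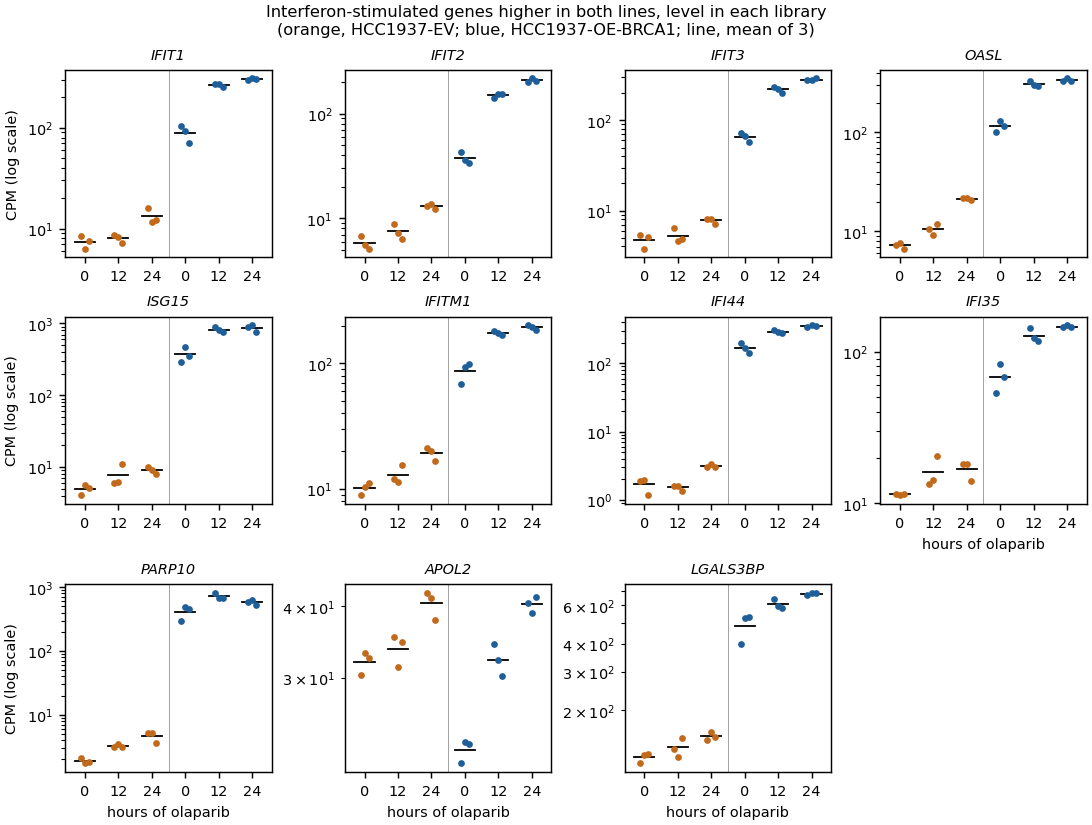
Level in CPM on a log scale of the 11 interferon-stimulated genes called higher in both lines, 1 point per library at 0 h, 12 h and 24 h of olaparib, with the mean of 3 as a line. HCC1937-EV (orange) and HCC1937-OE-BRCA1 (blue) differ in untreated level, with APOL2 higher in the former and the others higher in the latter, and in both lines the 24 h libraries lie above the 0 h libraries, as with OASL at 20.7 to 21.6 CPM against 6.66 to 7.6 CPM and 333 to 351 CPM against 101 to 130 CPM.

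Promoters of the genes printed below are shown because they hold the core of the element that this kind of complex, with STAT2 and IRF9, binds. The core was searched as GAAA, any 2 bases and GAAA again, on either strand and with overlaps allowed, in the 250 bases before the start of a gene in RefSeq's promoter table (GRCh38.p14), and is printed in capitals, 5′ to 3′ on the gene's strand. Of the 63 shared risers 46 had a promoter in the table and 8 held the core (17.4%), against 205 of 9438 among all genes at 1 CPM or more in both lines (2.17%) and 834 of 27305 among all promoters (3.05%). Of the 11 listed interferon-stimulated genes among the 63, 7 had a promoter and 6 held the core (85.7%), and of the 49 in the list 40 and 21 (52.5%). IFIT2 and OASL had no promoter in the table and were not searched. Of the 22 fallers, 17 had a promoter and 1, that of KLHL5, held the core (5.88%). A match of letters is a description, not a site or a cause.
IFIT3 (chr10:89327747-89327996, plus strand): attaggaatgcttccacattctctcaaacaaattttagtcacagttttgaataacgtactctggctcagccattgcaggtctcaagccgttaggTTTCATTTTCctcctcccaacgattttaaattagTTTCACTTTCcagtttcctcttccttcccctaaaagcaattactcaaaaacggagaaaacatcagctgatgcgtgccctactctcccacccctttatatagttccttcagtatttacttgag
IFIT1 (chr10:89392373-89392622, plus strand): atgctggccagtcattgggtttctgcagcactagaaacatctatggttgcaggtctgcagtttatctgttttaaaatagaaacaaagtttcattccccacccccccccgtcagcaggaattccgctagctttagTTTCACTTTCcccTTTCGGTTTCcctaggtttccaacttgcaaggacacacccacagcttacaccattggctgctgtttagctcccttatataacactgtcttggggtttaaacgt
IFITM1 (chr11:313790-314039, plus strand): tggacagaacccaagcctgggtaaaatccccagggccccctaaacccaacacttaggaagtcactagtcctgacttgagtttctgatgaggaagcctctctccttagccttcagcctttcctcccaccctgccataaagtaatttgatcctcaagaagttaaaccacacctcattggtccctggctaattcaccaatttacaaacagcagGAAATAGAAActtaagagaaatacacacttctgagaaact
ISG15 (chr1:1013247-1013496, plus strand): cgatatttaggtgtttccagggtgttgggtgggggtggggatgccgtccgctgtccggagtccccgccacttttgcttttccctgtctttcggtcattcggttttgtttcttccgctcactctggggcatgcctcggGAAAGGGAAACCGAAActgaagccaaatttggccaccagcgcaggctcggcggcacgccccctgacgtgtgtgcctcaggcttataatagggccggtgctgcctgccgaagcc
IFI44 (chr1:78649539-78649788, plus strand): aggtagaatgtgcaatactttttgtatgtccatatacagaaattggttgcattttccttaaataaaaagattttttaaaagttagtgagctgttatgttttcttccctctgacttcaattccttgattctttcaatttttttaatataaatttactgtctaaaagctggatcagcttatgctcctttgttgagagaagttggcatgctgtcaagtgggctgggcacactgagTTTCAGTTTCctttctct
LGALS3BP (chr17:78979924-78980173, minus strand): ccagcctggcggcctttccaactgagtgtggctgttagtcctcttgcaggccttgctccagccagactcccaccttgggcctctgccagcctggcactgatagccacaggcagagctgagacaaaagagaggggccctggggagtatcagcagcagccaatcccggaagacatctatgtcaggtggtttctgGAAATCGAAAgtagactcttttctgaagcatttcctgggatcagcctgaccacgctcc
SHFL (chr19:10086067-10086316, plus strand): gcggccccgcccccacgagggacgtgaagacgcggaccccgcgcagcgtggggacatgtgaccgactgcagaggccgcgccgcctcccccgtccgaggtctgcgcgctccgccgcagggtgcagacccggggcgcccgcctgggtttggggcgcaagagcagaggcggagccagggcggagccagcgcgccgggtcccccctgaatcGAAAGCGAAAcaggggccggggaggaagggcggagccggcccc

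IFIT3 and IFIT1 each held the core 2 times on the minus strand, at 122 to 156 and 103 to 116 bases before the start, and ISG15 held 2 overlapping copies on the plus strand. IFITM1, IFI44, LGALS3BP and SHFL held 1 each, between 18 and 58 bases before the start. SHFL, an inhibitor of ribosomal frameshifting that interferon can induce, is not in the list and was named for its promoter after its values were seen. It rose 1.46-fold in HCC1937-EV, from 11.5, 11.9 and 10.1 CPM to 14.3, 17.2 and 17.6 CPM, and 1.7-fold in HCC1937-OE-BRCA1, from 25, 30.7 and 25.1 CPM to 46.3, 49.4 and 42 CPM. The call of SHFL in both lines was lost without replicates 1 or 3 of untreated HCC1937-EV or replicate 2 at 24 h. With the offset for GC content and length SHFL was not called in HCC1937-EV (log2 0.30, edgeR's adjusted p = 0.0577). The eighth riser with the core was COL17A1, which has it 227 bases before its start.

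More of the interferon-stimulated genes were called in HCC1937-OE-BRCA1 than in HCC1937-EV. In the former 43 of the 49 rose and 0 fell by edgeR, against 5.14% and 4.82% of all genes. In the latter 13 rose and 5 fell, against 11.9% and 7.03% of all genes, and the difference between the lines was called for 35. Of the 28 called higher in the mean, 16 were not called in HCC1937-EV and 1 was not called in HCC1937-OE-BRCA1. The latter was IFI6, at 2.39 CPM and then 9.55 CPM on average in HCC1937-EV (log2 1.99, edgeR's adjusted p = 0.00154) and at 605 CPM and 818 CPM in HCC1937-OE-BRCA1 (0.44, edgeR's adjusted p = 0.241). Among the 16 were STAT2, a subunit of the activating complex, at log2 fold changes of 0.11 and 1.28, the synthetase OAS1 at -0.07 and 1.29, the ISG15 ligase HERC5 at -0.21 and 1.87, and the RNA sensor IFIH1 at -0.12 and 1.12. The 5 that fell in HCC1937-EV, EIF2AK2, APOL6, PLSCR1, PARP12 and TRIM14, all rose in HCC1937-OE-BRCA1. In untreated cells 38 of the 49 had a level in HCC1937-OE-BRCA1 at least 2-fold that in HCC1937-EV, and 6 had a lower one, and the part of these levels in the calls was not tested.

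CDKN1A, the gene of the cell cycle inhibitor p21 and a classical p53 target, rose in both lines. It stood at 9.44, 10.8 and 13.1 CPM in untreated HCC1937-EV and at 24.6, 21.8 and 23.6 CPM at 24 h. Its level in HCC1937-OE-BRCA1 went from 66.1, 73.6 and 79.8 CPM to 114, 113 and 105 CPM, so that no libraries overlapped. The rise was 2.1-fold (log2 1.07 ± 0.12 SE, edgeR's adjusted p = 6.29e-05) and 1.51-fold (0.60 ± 0.11, edgeR's adjusted p = 0.0015), and the smaller change in HCC1937-OE-BRCA1 was called (difference -0.47, edgeR's adjusted p = 0.0458). With the offset for GC content and length the log2 fold changes were 0.81 and 0.72 and the difference of -0.09 was not called (edgeR's adjusted p = 0.717). CDKN1A stayed called in both lines without any 1 library and in the 8 other refits.

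Of 38 p53 target genes, 6 (15.8%) rose in the mean and 0 fell by edgeR, against 2.90% and 1.45% of all genes, and CDKN1A was the only one called in both lines. The others were GDF15, a stress-induced secreted factor, at a mean log2 fold change of 0.85 ± 0.13, the BH3-only protein BBC3 at 0.60 ± 0.14, the mitochondrial reductase FDXR at 0.51 ± 0.14, the repair protein DDB2 at 0.43 ± 0.08 and the antiproliferative BTG2 at 0.32 ± 0.07. GDF15 was called in HCC1937-OE-BRCA1 alone (0.51 and 1.18), and BBC3, FDXR, DDB2 and BTG2 in HCC1937-EV alone. The median over the 38 genes was 0.0888 in the mean, against -0.000707 for all genes.

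FANCD2, which is ubiquitinated at stalled forks in the Fanconi anaemia pathway, stood at 90.2, 88.1 and 87.6 CPM in untreated HCC1937-EV and at 115, 114 and 114 CPM at 24 h. Levels in HCC1937-OE-BRCA1 were 49.3, 49.2 and 48.4 CPM and then 63.5, 63.7 and 64.7 CPM. The libraries were tightly grouped and did not overlap, and the rise was 1.29-fold and 1.31-fold with edgeR's adjusted p of 0.00759 and 0.0049. FANCD2 was not called by the intersection-union test of both lines (that test's adjusted p = 0.0828). Of 61 genes of homologous recombination and the Fanconi anaemia pathway, 6 (9.84%) rose and 0 fell in the mean by edgeR, against 2.90% and 1.45% of all genes, the others being RAD51B, CHEK2, EXO1, RAD54L and EME1 at 0.85, 0.36, 0.33, 0.32 and 0.30. FANCD2 was the only one called in both lines. In HCC1937-EV 4 of the 61 rose and 4 fell (11.9% and 7.03% of all genes), with a median of -0.141, and in HCC1937-OE-BRCA1 5 rose and 0 fell by edgeR (5.14% and 4.82% of all genes), with a median of 0.22.

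DNA ligase LIG1, which seals Okazaki fragments, rose 1.23-fold and 1.27-fold, from 97.5, 111 and 100 CPM to 126, 131 and 123 CPM and from 97.6, 110 and 112 CPM to 136, 137 and 134 CPM. ORC6, a subunit of the origin recognition complex, rose 1.24-fold and 1.29-fold, from 70.6, 61.9 and 69.3 CPM to 87.9, 84.1 and 78.1 CPM and from 71.2, 70.1 and 62.3 CPM to 82.6, 91.5 and 87.7 CPM. Both genes kept apart in every library, but each was called in both lines in only 4 of the 12 fits that left out 1 library. LIG1 lost the call without replicates 1 or 3 of untreated HCC1937-EV or any 1 of the 24 h libraries of either line. ORC6 lost it without any 1 of the untreated HCC1937-EV libraries, replicates 1 or 2 of HCC1937-EV at 24 h, replicate 3 of untreated HCC1937-OE-BRCA1 or its replicates 2 or 3 at 24 h. Over all 12 fits log2 fold changes of LIG1 lay between 0.26 and 0.36 in HCC1937-EV and 0.29 and 0.38 in HCC1937-OE-BRCA1, and those of ORC6 between 0.25 and 0.35 and between 0.30 and 0.40. Of the 70 replication and S-phase genes, 5 (7.14%) rose and 0 fell in the mean by edgeR, against 2.90% and 1.45% of all genes, the others being the licensing factor CDT1, the flap nuclease FEN1 and the ribonucleotide reductase subunit RRM2. In HCC1937-EV 6 of the 70 rose and 13 fell, in HCC1937-OE-BRCA1 16 rose and 1 fell, against the same shares of all genes in each line, the medians were -0.116 and 0.198, and 51 had changes of opposite sign.

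KIF20A, a kinesin of cytokinesis, stood at 187, 192 and 182 CPM in untreated HCC1937-EV and at 121, 134 and 131 CPM at 24 h. Levels in HCC1937-OE-BRCA1 were 228, 182 and 208 CPM and then 134, 133 and 148 CPM. It fell without overlap to 0.688 and 0.671 of its untreated level (log2 -0.54 ± 0.10 and -0.58 ± 0.10, edgeR's adjusted p = 0.0028 and 0.000657) and stayed called in both lines without any 1 library. KIF20A was not called by the intersection-union test of both lines (that test's adjusted p = 0.155). Of 74 G2/M and mitosis genes, 7 (9.46%) fell and 1 (1.35%), SPC24, rose in the mean, against 1.45% and 2.90% of all genes. The lines were unlike in this list: in HCC1937-EV 12 of the 74 rose and 7 fell (11.9% and 7.03% of all genes), in HCC1937-OE-BRCA1 0 rose by edgeR and 22 fell (5.14% and 4.82% of all genes), and 46 had changes of opposite sign. The kinetochore motor CENPE, at -0.77 ± 0.15, CENPF at -0.42 and the phosphatase CDKN3 at -0.39 were called in HCC1937-EV and not in HCC1937-OE-BRCA1, as was anillin (ANLN, -0.41). The kinase PLK1, at -0.48, and the anaphase activator CDC20, at -0.42, were called in HCC1937-OE-BRCA1 alone, with -0.08 and 0.21 in HCC1937-EV.

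Of 16 clustered histone genes at 1 CPM or more in both lines, 4 (25%) fell and 0 rose in the mean by edgeR, against 1.45% and 2.90% of all genes, with a list median of -0.429. H2AC6, a histone H2A gene, fell from 20, 16.8 and 18 CPM to 7.56, 6.96 and 9.29 CPM in HCC1937-EV, to 0.434 of its level, and from 90.3, 95.3 and 93.4 CPM to 69.3, 73.2 and 72.5 CPM in HCC1937-OE-BRCA1, to 0.771. The libraries did not overlap and the fall was larger in HCC1937-EV (difference 0.83, edgeR's adjusted p = 0.00183). The call of H2AC6 in both lines was lost without replicates 2 or 3 of HCC1937-OE-BRCA1 at 0 h or any 1 of its 24 h libraries. Over all 12 fits that left out 1 library, the log2 fold change of H2AC6 in that line lay between -0.40 and -0.35. H4C8, H2BC21 and H2BC5, at mean log2 fold changes of -0.73, -0.70 and -0.44, were called in HCC1937-EV and not in HCC1937-OE-BRCA1. Near-identical copies of histone genes share reads, so values of single histone genes are uncertain.

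Further shared risers belong to redox, autophagy, matrix and splicing lists. HMOX1, the heme oxygenase and a target of the oxidative stress factor NRF2, rose 1.5-fold and 1.41-fold, from 24.9, 31.5 and 30.7 CPM to 42.7, 44.9 and 42.8 CPM and from 8.56, 9.61 and 10.1 CPM to 13.6, 14.1 and 12.1 CPM. Of 33 NRF2 target and glutathione genes, 4 (12.1%) rose and 0 fell in the mean by edgeR, against 2.90% and 1.45% of all genes, among them the ferritin FTH1 and the exporter ABCC3. Of 38 lysosome and autophagy genes 7 (18.4%) rose and 0 fell by edgeR, against the same shares, of which GABARAPL1, an ATG8 protein of autophagosomes, was the one called in both lines, at 1.25-fold and 1.54-fold. The splicing factor SRSF3 rose 1.34-fold and 1.25-fold and was the only one of 34 SF3A, SF3B and SR splicing factors called in the mean. With the offset SRSF3 changed by 0.19 (log2) in HCC1937-OE-BRCA1 and was not called there (edgeR's adjusted p = 0.259). The matrix gene COL6A1 rose 1.74-fold and 1.39-fold.

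In the matrix list of 44 genes, 6 (13.6%) rose and 4 (9.09%) fell in the mean, against 2.90% and 1.45% of all genes. COL17A1, a hemidesmosome collagen, rose 1.39-fold and 1.37-fold, but its HCC1937-EV libraries overlapped, with 6.91 CPM in 1 untreated library and 6.29 CPM in 1 at 24 h. COL17A1 was called in both lines in 3 of the 12 fits without 1 library, and with the offset for GC content and length it was not called in HCC1937-EV (edgeR's adjusted p = 0.0628). THBS1, a matrix glycoprotein, fell to 0.805 and 0.651, from 59.5, 61.3 and 60.8 CPM to 44.7, 48.5 and 52.8 CPM and from 97, 100 and 115 CPM to 69.1, 63.8 and 70.5 CPM. With the offset for GC content and length THBS1 changed by -0.10 (log2) in HCC1937-EV and was not called there, against -0.31. Of 54 integrated stress and unfolded protein response genes 7 (13%) rose and 1 (1.85%) fell in the mean, against the same shares. The lines were unlike in this list. In HCC1937-EV 4 of the 54 rose and 10 fell (11.9% and 7.03% of all genes), with a median of -0.126. In HCC1937-OE-BRCA1 13 rose and 1 fell (5.14% and 4.82% of all genes), with a median of 0.173. Changes of opposite sign were seen in 38 of the 54, against 66.3% of all genes. The transcription factor CEBPB was the only one called in both lines, at 1.34-fold and 1.26-fold, with overlapping libraries in HCC1937-OE-BRCA1. CEBPB was called in both lines in 3 of the 12 fits without 1 library and 2 of the 8 other refits, and with the offset it changed by -0.05 in HCC1937-EV (edgeR's adjusted p = 0.879) and lost its call in the mean (edgeR's adjusted p = 0.101).

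The calls in both lines of several of these genes rested on single libraries. HMOX1 lost it without replicate 1 of untreated HCC1937-EV, replicate 2 of untreated HCC1937-OE-BRCA1 or replicates 1 or 2 of the latter at 24 h, and GABARAPL1 without replicates 1 or 3 of untreated HCC1937-EV or 1 or 2 at 24 h. COL6A1 lost it without replicates 1 or 2 of untreated HCC1937-OE-BRCA1 or any 1 of its 24 h libraries, with a log2 fold change in that line between 0.40 and 0.59 over all 12 fits. SRSF3 lost it in 6 of the 12 fits and THBS1 in 8, with log2 fold changes of 0.25 to 0.38 for SRSF3 in HCC1937-OE-BRCA1 and of -0.38 to -0.25 for THBS1 in HCC1937-EV.

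**Figure D3:**
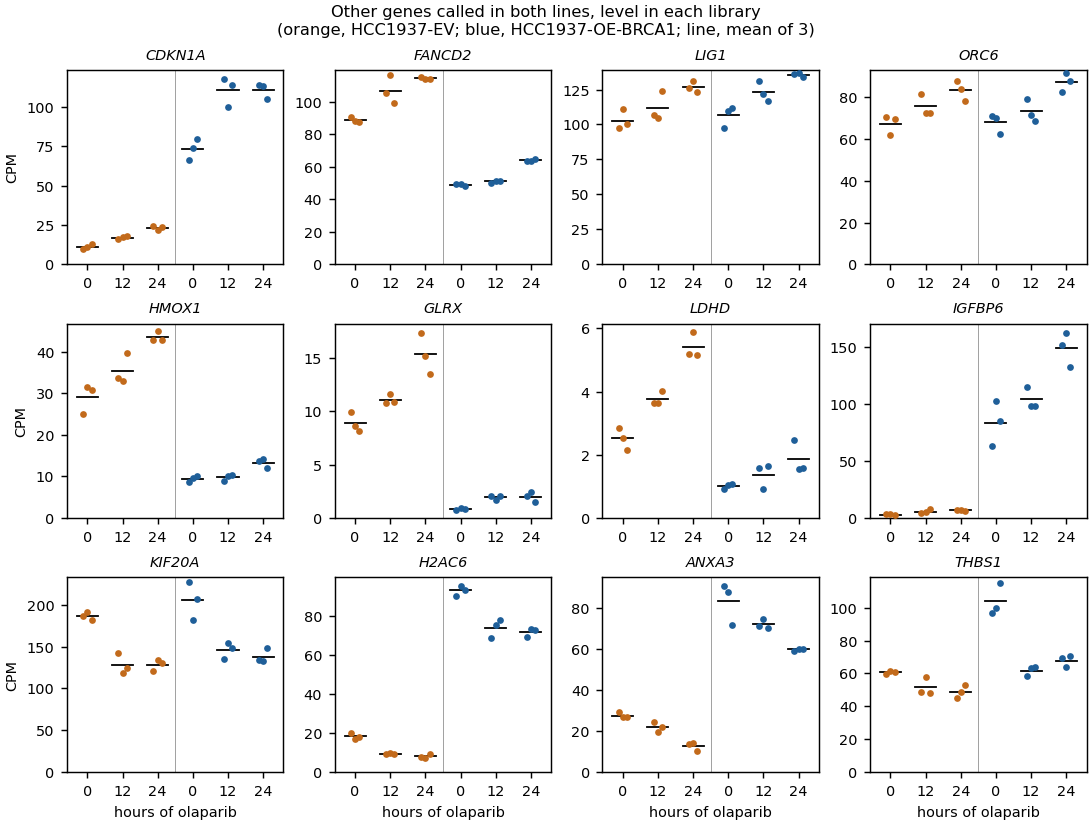
Level in CPM of 12 other genes called in both lines, 1 point per library at 0 h, 12 h and 24 h of olaparib, with the mean of 3 as a line, for HCC1937-EV (orange) and HCC1937-OE-BRCA1 (blue). CDKN1A, FANCD2, LIG1, ORC6, HMOX1, GLRX, LDHD and IGFBP6 were higher at 24 h than at 0 h in every library of a line, and KIF20A, H2AC6, ANXA3 and THBS1 were lower.

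Among the shared risers outside the lists, 5 were in the 12 largest. CCR3, a chemokine receptor, rose 2.05-fold and 2.53-fold, from 2.17, 1.24 and 2.28 CPM to 5.43, 3.36 and 2.88 CPM and from 2.59, 4.5 and 3.9 CPM to 7.5, 11.4 and 8.89 CPM. GLRX, a glutaredoxin, rose 1.72-fold and 2.27-fold, from 9.94, 8.65 and 8.2 CPM to 17.4, 15.2 and 13.5 CPM and from 0.739, 0.986 and 0.882 CPM to 2.03, 2.46 and 1.47 CPM. IGFBP6, which binds insulin-like growth factors, rose 2.16-fold and 1.79-fold, from 3.66, 3.15 and 2.41 CPM to 6.97, 6.66 and 6.29 CPM and from 62.6, 102 and 84.6 CPM to 151, 162 and 132 CPM. GLRX and IGFBP6 were called in both lines without any 1 library.

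The D-lactate dehydrogenase LDHD rose 2.15-fold and 1.83-fold, from 2.16 to 2.86 CPM to 5.15 to 5.9 CPM in HCC1937-EV and from 0.924 to 1.07 CPM to 1.54 to 2.46 CPM in HCC1937-OE-BRCA1, where edgeR's adjusted p was 0.0495. It lost its call in both lines without any 1 of the 12 libraries, with log2 fold changes in HCC1937-OE-BRCA1 of 0.62 to 0.99. PTGER4, a receptor of prostaglandin E2, rose 1.57-fold and 2.38-fold, from 2.78 to 3.66 CPM to 5.09 to 5.6 CPM and from 3.46 to 4.37 CPM to 7.85 to 11.4 CPM. The call of PTGER4 was lost without any 1 HCC1937-EV library (0.53 to 0.71 in that line), and that of CCR3 without any 1 untreated HCC1937-EV library or its replicates 1 or 2 at 24 h (0.72 to 1.20). The largest mean rise of all belonged to ENSG00000188897.9, a protein-coding gene on chromosome 16 with no symbol in the table used and so outside the naming rule, at 1.94-fold and 6.99-fold, from 3.08 to 5.07 CPM to 6.85 to 8.43 CPM and from 1.11 to 1.7 CPM to 8.17 to 10.4 CPM. Its call in both lines was lost without replicates 1 or 3 of untreated HCC1937-EV or replicate 2 at 24 h (0.80 to 1.20 in that line).

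Several smaller shared rises held in every fit that left out 1 library and in the 8 other refits, and these genes were named for that after their values were seen. They were NPTX1, a neuronal pentraxin, DGLUCY, a D-glutamate cyclase, LURAP1L, the sialic acid receptor CD22, LRG1, a leucine-rich glycoprotein, TEF, a clock-controlled transcription factor, the MHC-like antigen presenter MR1, the protease PRSS23 and the water channel AQP3. Their mean log2 fold changes lay between 0.46 for AQP3 and 0.90 for NPTX1 and DGLUCY. TEF stood at 14.2, 11.4 and 14.6 CPM in untreated HCC1937-EV and 19.1, 19.1 and 20.5 CPM at 24 h, and at 23.1, 24.2 and 27.9 CPM and 45.1, 43.3 and 43.2 CPM in HCC1937-OE-BRCA1. MR1 went from 14.5, 14.3 and 15 CPM to 20.4, 20.5 and 19.4 CPM and from 49.9, 53.7 and 48.6 CPM to 83.4, 80.6 and 89.1 CPM. Neither gene overlapped between treated and untreated libraries. NPTX1 was the reverse of the interferon-stimulated genes in level, at 918 to 950 CPM in untreated HCC1937-EV and 1.48 to 1.97 CPM in untreated HCC1937-OE-BRCA1.

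The shared fallers were smaller in size, and only 3 of the 22 reached a mean fall of 1.5-fold, ANXA3, H2AC6 and LINC03061, whereas 8 of the 63 risers reached 2-fold. ANXA3, a calcium-dependent phospholipid-binding annexin, fell to 0.456 and 0.716, from 29, 26.6 and 26.9 CPM to 13.5, 13.9 and 10.2 CPM and from 91.1, 87.8 and 72 CPM to 59.1, 60.3 and 60.2 CPM. The fall was larger in HCC1937-EV (difference 0.65, edgeR's adjusted p = 0.0121), and the call in HCC1937-OE-BRCA1 was lost without its replicate 2 at 0 h or replicates 1 or 3 at 24 h (-0.58 to -0.42). LINC03061, a long non-coding RNA, fell to 0.643 and 0.666, from 22.5, 18 and 19.3 CPM to 12.5, 13.4 and 12.5 CPM and from 299, 324 and 300 CPM to 202, 205 and 208 CPM, and was called in both lines without any 1 library. Whether counting used strand is not given in the sources used here, so its reads cannot be told apart from those of any overlapping gene.

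Other fallers by size were MOB3B, MTSS2, ABCC4, DYRK2, KRT80 and KLHL5, with mean log2 fold changes between -0.58 and -0.46. ABCC4, an exporter of cyclic nucleotides and drugs, fell to 0.687 and 0.712, from 106, 95.2 and 98.9 CPM to 64.6, 64.7 and 76.8 CPM and from 39.3, 31.7 and 35.1 CPM to 25.7, 24.4 and 25.4 CPM. The keratin KRT80 fell to 0.738 and 0.703, from 30.7, 33.1 and 32.4 CPM to 21.1, 23.3 and 26.6 CPM and from 115, 123 and 142 CPM to 91.2, 86.4 and 90.2 CPM. DYRK2, a protein kinase, fell to 0.72 and 0.703. Libraries did not overlap for any of them. With the offset for GC content and length, DYRK2 and MOB3B changed by -0.15 and -0.12 (log2) in HCC1937-EV and were not called there, against -0.47 and -0.38. ABCC4 lost its call in both lines without replicates 2 or 3 of HCC1937-OE-BRCA1 at 24 h, and KRT80 without replicates 1 or 2 of HCC1937-EV at 24 h, while MOB3B and MTSS2 lost it in 8 of the 12 fits, KLHL5 in 7 and DYRK2 in 4. Among the remaining shared fallers were ODC1, the first enzyme of polyamine synthesis (0.801 and 0.708), the histone chaperone subunit SSRP1 (0.851 and 0.836) and the snRNP core protein SNRPD3 (0.769 and 0.803), named after their values were seen. ODC1, SSRP1 and SNRPD3 were called in both lines in 9, 1 and 8 of the 12 fits. With the offset SSRP1 was not called in HCC1937-EV (log2 -0.17, edgeR's adjusted p = 0.123).

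**Figure D4:**
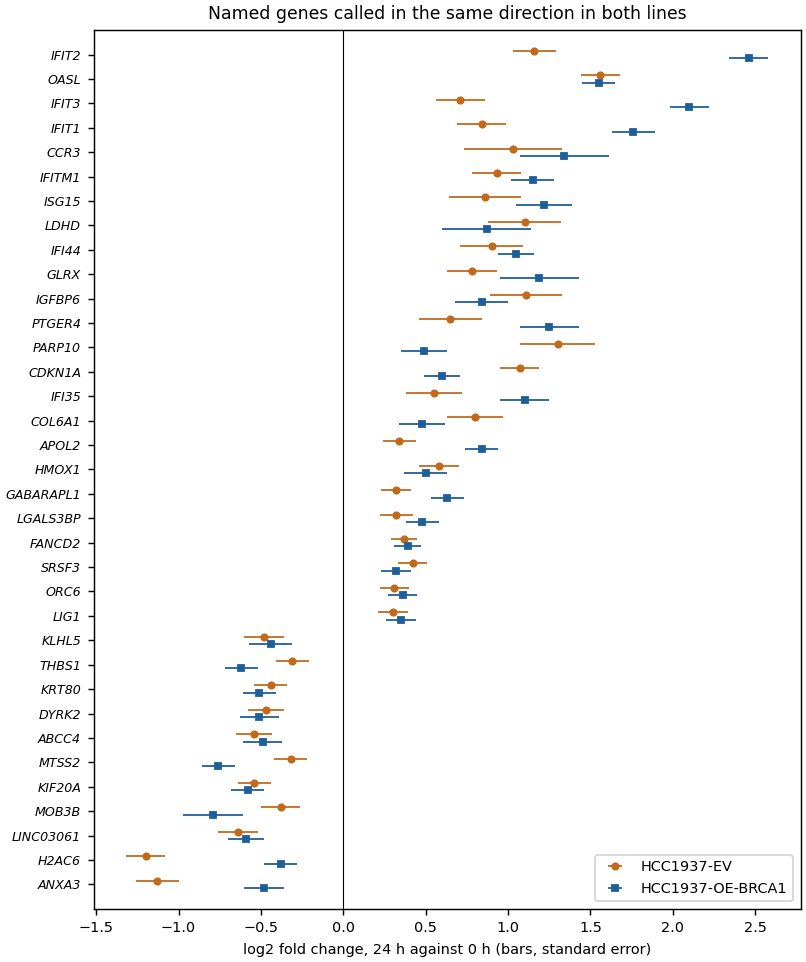
Log2 fold change after 24 h of olaparib with its standard error in HCC1937-EV (orange circles) and HCC1937-OE-BRCA1 (blue squares) for the named genes shown, called in the same direction in both lines. The fold changes of OASL, FANCD2 and KIF20A nearly coincide, those of IFIT2, IFIT3 and IFIT1 are larger in HCC1937-OE-BRCA1, and those of PARP10 and H2AC6 are larger in HCC1937-EV, of which that of PARP10 was not called with the offset for GC content and length.

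Of the 63 risers, 33 were at least 2-fold higher in mean level in HCC1937-OE-BRCA1 and 14 at least 2-fold higher in HCC1937-EV. The difference of the fold changes was called for 11 of them, against 27.2% of all genes, and the choice of genes called in the same direction limits it. The fold change was larger in HCC1937-OE-BRCA1 for 38 of them and larger in HCC1937-EV for 25, and for the 22 fallers it was larger for 10 and 12, with the difference called for 3. Median log2 fold changes of the risers were 0.55 in HCC1937-EV and 0.63 in HCC1937-OE-BRCA1, and those of the fallers -0.42 and -0.46. These medians were fixed in sign by the choice of genes. By the annotation all 63 risers and 21 of the 22 fallers were protein-coding.

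At 12 h, the levels of most of these genes lay between those at 0 h and 24 h. The 12 h libraries were not in the contrasts that chose the genes. They did enter the filter, the scaling and the shared estimate of the spread behind the p-values. Any comparison with 0 h also shares the untreated libraries, so only levels are given. Of the 63 risers the 12 h mean lay between the 0 h and 24 h means for 55 in HCC1937-EV and 50 in HCC1937-OE-BRCA1, and it lay above the 24 h mean for 3 and 7. All 3 libraries at 12 h lay above all 3 at 0 h for 30 and 43 of them, against 12.3% and 8.32% of all genes. IFIT2 stood at 8.84, 7.31 and 6.38 CPM at 12 h in HCC1937-EV, near its untreated range, and at 141, 153 and 154 CPM in HCC1937-OE-BRCA1, well above it. OASL stood at 10.6, 9.13 and 11.9 CPM and at 334, 299 and 298 CPM. For the 22 fallers all 12 h libraries lay under all 0 h libraries for 13 and 17, against 12.1% and 6.45% of all genes, as with KIF20A at 142, 119 and 124 CPM and 135, 154 and 149 CPM.

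Other gene lists had few or no genes called in the mean by number, though some had shares above those of all genes. Of 76 nuclear genes of oxidative phosphorylation 43 rose in HCC1937-EV (11.9% of all genes) and 5 fell in HCC1937-OE-BRCA1 (4.82% of all genes), with medians of 0.474 and -0.239, and 0 were called in the mean by edgeR in either direction. Of 78 cytosolic ribosomal protein genes 39 rose in HCC1937-EV and 12 fell in HCC1937-OE-BRCA1, against the same shares of all genes, with medians of 0.382 and -0.377 and again 0 called in the mean. Of 21 small nucleolar RNA host genes 3 fell in the mean, SNHG1, SNHG3 and SNHG4, at -0.27, -0.27 and -0.42. In the remaining lists, 0 of 13 genes of mitochondrial DNA were called in the mean, 1 of 27 NF-kB targets rose, 1 of 37 glycolysis and hypoxia genes rose, 1 of 35 cholesterol genes fell, 4 of 34 AP-1 and immediate early genes rose and 1 fell, 1 of 18 keratin and epidermal genes rose and 1 fell, 4 of 38 cell death genes rose, 1 of 18 MHC genes rose and 2 of 17 PARP family genes rose. These shares stand against 2.90% higher and 1.45% lower among all genes. Several lie above them, as in the small nucleolar RNA host, AP-1, cell death and PARP family lists. Some of their risers were counted in lists above. PARP10 and PARP9 of the PARP family are also listed interferon-stimulated genes. BBC3 of the cell death list and BTG2 of the AP-1 list are also p53 targets. ATF3 of the AP-1 list is also in the stress response list. Genes of mitochondrial DNA took 7.1% to 8.33% of counts in untreated HCC1937-EV and 5.8% to 5.86% at 24 h, and 4.99% to 5.66% and 5.77% to 6.28% in HCC1937-OE-BRCA1.

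**Figure D5:**
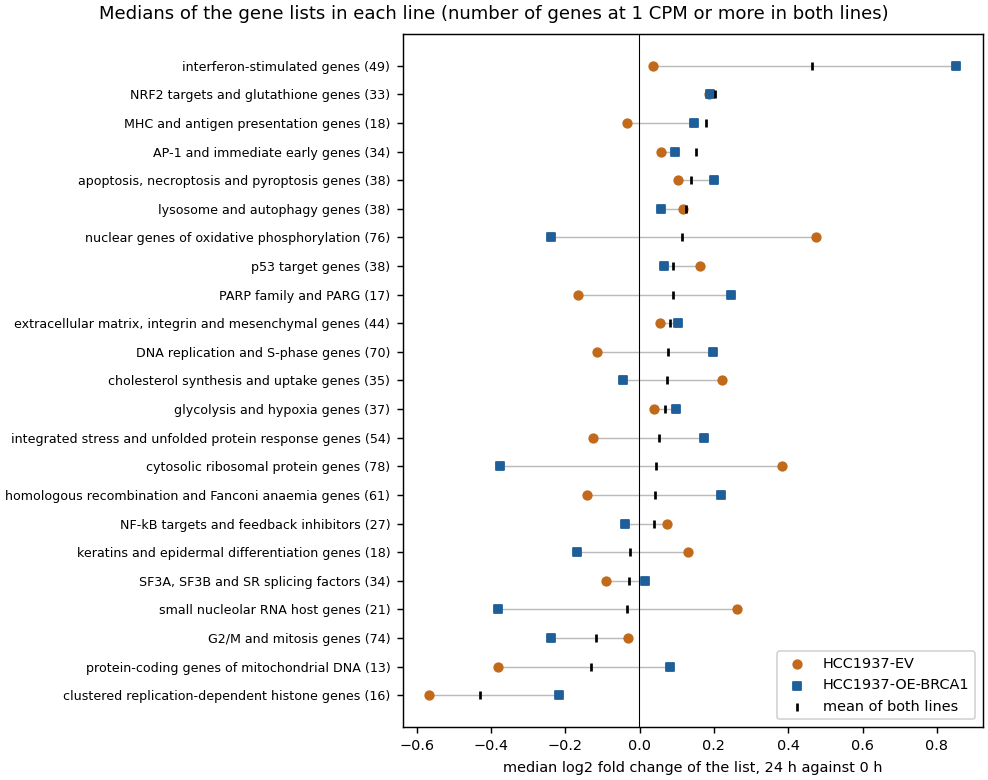
Median log2 fold change of each gene list after 24 h of olaparib in HCC1937-EV (orange circles), in HCC1937-OE-BRCA1 (blue squares) and for the mean of both lines (black ticks), with the number of genes at 1 CPM or more in both lines in brackets. Among the lists shown, which leave out the cell type markers, the interferon-stimulated genes have the largest median of the mean, 0.465, with 0.0356 and 0.852 in the lines. The histone genes have the lowest, -0.429, while the oxidative phosphorylation and ribosomal protein genes lie on opposite sides of 0.

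Some genes were called in opposite directions. SLC7A11, the cystine importer that feeds glutathione synthesis, fell from 59.5, 54.7 and 60.8 CPM to 27, 25.2 and 26.7 CPM in HCC1937-EV and rose from 39.6, 28.7 and 28.7 CPM to 52.1, 57.3 and 60.5 CPM in HCC1937-OE-BRCA1 (difference 1.96, edgeR's adjusted p = 2.71e-05). The non-coding RNAs LUCAT1 and BCAN-AS2 did the same at under 11 CPM, with differences of 2.12 and 2.34, and the antisense BCAN-AS2 cannot be told apart from its partner without strand. DNPH1, UBL5 and TRAPPC6A rose in HCC1937-EV and fell in HCC1937-OE-BRCA1, with differences of -2.58, -2.45 and -2.28. Untreated replicates of HCC1937-OE-BRCA1 spread widely for DNPH1, at 32.6, 85.1 and 76.3 CPM, and for UBL5, at 38.6, 105 and 98.6 CPM. With replicate 1 the untreated range overlapped the treated one in that line for both genes, at 25.7 to 33.9 CPM and 34.1 to 42 CPM.

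The genes of the drug targets were called neither in the mean nor in either line. PARP1 stood at 597, 619 and 621 CPM and then 583, 559 and 539 CPM in HCC1937-EV and at 444, 443 and 457 CPM and then 481, 485 and 512 CPM in HCC1937-OE-BRCA1, a mean log2 fold change of 0.00 ± 0.05 (edgeR's adjusted p = 1). This mean of PARP1 joins -0.13 ± 0.07 in HCC1937-EV and 0.14 ± 0.07 in HCC1937-OE-BRCA1 (edgeR's adjusted p = 0.256 and 0.28). Its treated and untreated libraries did not overlap in either line. The difference of 0.26 between the lines was not called (edgeR's adjusted p = 0.0821). PARP2 changed by 0.05 ± 0.07 in the mean (edgeR's adjusted p = 0.832). BRCA1 changed by -0.32 ± 0.11 in HCC1937-EV and 0.22 ± 0.11 in HCC1937-OE-BRCA1, neither called (edgeR's adjusted p = 0.064 and 0.242), while the difference of 0.54 was called (edgeR's adjusted p = 0.023) but not with the offset for GC content and length (0.13, edgeR's adjusted p = 0.195).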

How the data were processed

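Gene expression was measured by RNA-seq in 18 libraries, 3 for each of 6 conditions. Per the labels, TRIzol was used for extraction and an NEBNext Ultra II kit for the libraries. The values that the authors deposited are raw counts of reads for each gene, whole and not normalized. The submitters' processing notes name HISAT2, featureCounts and DESeq2 and the builds GRCh38 and hg38. The annotation, the strand setting and any selection of RNA are not given in the sources used here. The 18 single-library tables equalled their columns in the joint table.

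Counts were tested with edgeR 4.0.16 in R 4.3.3. Libraries were normalized by TMM, genes passing filterByExpr by condition (18335) were kept, and its quasi-likelihood test was run on a fit of 1 mean per condition over all 18 libraries, which share 1 estimate of the spread (biological coefficient of variation 12.9%). Contrasts were the mean of both lines, each line and their difference, 24 h against 0 h. A call needed an adjusted p under 0.05 (Benjamini-Hochberg over all genes tested), with no minimum fold change. A shared gene was called in the mean and in each line with the same sign. Levels are CPM with TMM library sizes. With 3 libraries against 3, an exact permutation test of a single gene cannot go below 0.1.

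No replicates of a condition agreed within sampling noise: the chi-square per degree of freedom of a pair was 3.6 or more. Replicate numbers were not treated as pairs, since deviations of same-numbered libraries correlated between -0.242 and 0.307. Symbols were found for 26360 identifiers (75.22%), and positions and gene types on GRCh38 for 33888 (96.70%) from GENCODE release 29. Promoter sequences are RefSeq's (GRCh38.p14).

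Named genes were those called in both lines with a symbol and no overlap of treated and untreated libraries in either line: the 12 with the largest mean rise, the 12 with the largest mean fall and all others in a gene list, plus 3 genes each way called in opposite directions, BRCA1, PARP1 and PARP2. Genes named outside this rule are marked or belong to a list, and some genes are not reported here. The genes, the lists and the alternatives were chosen with earlier results of these data known, so no list is independent evidence. The alternatives were DESeq2 1.42.0 size factors and Wald test, other filters and minimum levels, 12 libraries alone, fold minimums, a replicate block, an offset for GC content and length, an additive model, an intersection-union test of both lines and each library left out. The main edgeR fit, DESeq2's test, the replicate block and the fit of 12 libraries alone were checked on simulated data. The other alternatives, the offset for GC content and length among them, were not.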

Additional observations from a re-analysis of the deposited data

Results flagged for a closer look

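The change over 24 h differed between the lines, by edgeR's test of the difference itself, for 16 of the named genes. Differences are given as the log2 fold change in HCC1937-OE-BRCA1 minus that in HCC1937-EV. Among shared risers it was 1.31 for IFIT2, 1.39 for IFIT3, 0.93 for IFIT1 and 0.50 for APOL2, and on the other side -0.82 for PARP10 and -0.47 for CDKN1A. Among shared fallers it was 0.83 for H2AC6 and 0.65 for ANXA3, which fell more in HCC1937-EV, and -0.44 for MTSS2, which fell more in HCC1937-OE-BRCA1. Of the genes that moved in opposite directions, LUCAT1, BCAN-AS2 and SLC7A11 had differences of 2.12, 2.34 and 1.96, and TRAPPC6A, UBL5 and DNPH1 of -2.28, -2.45 and -2.58. For BRCA1 the difference was 0.54 with neither line called on its own. With the offset for GC content and length, applied to these differences after the data were seen, 12 of the 16 stayed called, and those of PARP10, CDKN1A, MTSS2 and BRCA1 were -0.16, -0.09, 0.00 and 0.13 and were not. The opposite changes were the ground on which 6 of these genes were named, so their differences are a description.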

How the results depend on the processing

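The counts of called genes were 358 higher and 179 lower in the mean, 63 and 22 in both lines and 214 in the mean with a called line difference. DESeq2's Wald test gave 542 and 379 in the mean, 43 lower in both lines and 369 with a line difference, and no filter on low counts gave 309 lower in the mean. An offset for GC content and length gave 1015, 813, 143, 112 and 708, and the offset with a replicate block 931, 773, 134, 103 and 646. A minimum log2 fold change of 0.5 left 152, 40, 27, 2 and 86 genes, and one of 1 left 16, 1, 3, 0 and 12, fewer by construction. An additive model of line and treatment, in which line differences add to the spread, gave 145 and 51. An intersection-union test of both lines by edgeR, adjusted over all genes, gave 6 higher (OASL, IFIT2, IFITM1, CDKN1A, IFIT1 and CD22) and 0 lower, where the lowest adjusted p was 0.155 for KIF20A and 162 genes had an unadjusted p under 0.05. Without 1 library at a time the counts lay between 196 and 374 higher and 101 and 218 lower in the mean, 24 and 63 higher and 4 and 24 lower in both lines, and 107 and 259 with a line difference. Other causes were not tested. Signs of the mean log2 fold change turned for 3 named genes that were not called in the mean. PARP1 went from 0.00 to -0.0031 with DESeq2's size factors or test, -0.014 without a filter and -0.0063 with a minimum of 10 counts, and lay between -0.011 and 0.015 without 1 library. BRCA1 went from -0.05 to 0.033 with the offset, with or without the block, and lay between -0.089 and 0.026 without 1 library. DNPH1 lay between -0.0053 and 0.28 without 1 library, against 0.16.

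Replicate numbers did not pair the libraries: same-numbered deviations had correlations of 0.165, 0.215 and -0.0199 in HCC1937-EV and -0.242, 0.307 and -0.0112 in HCC1937-OE-BRCA1, so not every pair was over 0.1. With a replicate block 304 genes were higher and 158 lower in the mean, 42 and 15 in both lines, of which 40 and 14 were among the 63 and 22, and 178 had a called line difference.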
